A study of Mus musculus with 4 samples.

Results

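The spots described here are the 10% of Visium capture spots in each of 4 MC38 tumor sections that gave the smallest share of their RNA to 12 host marker genes, and they are called host-marker-poor spots. They were chosen by their own counts of these genes, so the lower level of the 12 genes is no finding. The 12 genes were Ptprc (a pan-immune surface protein), Lyz2, Apoe, Cd68 and Csf1r (macrophages), Col1a1, Col3a1, Dcn, Bgn and Postn (fibroblasts), and Pecam1 and Kdr (endothelium). Spots of at least 10000 unique molecular identifiers (UMIs, each standing for 1 captured RNA molecule) were ranked within their section, and 1140 of the 11947 spots under tissue were taken. The rest of the ranked spots, 10286 in all, are called the other spots. The number taken was 254 and 317 in the 2 CC075F1 sections (replicates 1 and 2) and 273 and 296 in the 2 CC080F1 sections (replicates 1 and 2).

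The hosts were female F1 mice of 8 to 12 weeks with 1 parent of strain C57BL/6J and the other of a Collaborative Cross strain, CC075/UncJ for CC075F1 and CC080/TauUncJ for CC080F1. MC38 is a colon carcinoma line from C57BL/6 mice, so that an F1 host with a C57BL/6J parent can carry it, and the cells were placed under the skin. Every mouse in both groups had received a single dose of 200 µg of the isotype control antibody 2A3 once its tumor measured 75 to 110 mm3, and was killed 48 hours after the injection. None of these 4 tumors had received an antibody to PD-1. The study classes CC075F1 as a responder strain to PD-1 blockade and CC080F1 as a non-responder strain, and the sections stand for tumors before that treatment. There were 2 sections per strain, labelled as biological replicates, and p-values below measure only the spread between these sections.

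A transplanted carcinoma is a mixture of cancer cells, host macrophages and lymphocytes, fibroblasts that lay down collagen, and the vessels that feed it. Where cells outgrow their vessels, oxygen falls and the transcription factor HIF-1 turns on genes for glucose uptake, glycolysis, vessel growth and protein folding in the endoplasmic reticulum. Interferon gamma from T and NK cells raises antigen presentation by MHC class I in cancer cells and by MHC class II in macrophages and other presenting cells. A Visium spot covers several cells, so a level in a spot is a mixture, and fewer cells of a type and less RNA per cell cannot be told apart.

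The ranking share ended at 0.403% of UMIs for the last spot taken and 0.404% for the first left out in CC075F1 replicate 1, at 0.195% and 0.196% in CC075F1 replicate 2, at 0.379% and 0.380% in CC080F1 replicate 1 and at 0.338% and 0.338% in CC080F1 replicate 2. No host-marker-poor spot was free of the 12 genes. Their median count of host marker UMIs per spot was 125, 107, 117 and 118 in the same order of sections, and the smallest was 14. The sections held 82594649 to 146460975 UMIs in all, of which the host-marker-poor spots held 8814524 to 20706587. Median depth was 35036 UMIs per host-marker-poor spot against 31834 per other spot in CC075F1 replicate 1, 34002 against 34007 in CC080F1 replicate 1 and 39192 against 35714 in CC080F1 replicate 2. In CC075F1 replicate 2 it was 65524 against 40326, so that there the host-marker-poor spots were also the deeper ones. One section went against its label in part. Xist, the RNA that coats the inactive X chromosome in female cells, had 0 UMIs in the host-marker-poor spots and 2 in the other spots of CC080F1 replicate 1, against 46 to 103 and 679 to 1179 in the 3 other sections. The Y-linked genes Ddx3y and Eif2s3y had 0 UMIs in every section, Uty had at most 1 and Kdm5d at most 4. Fold changes between strains of the main named genes are therefore given without this section as well, while list counts include it.

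Many host-marker-poor spots lay next to one another. Among the neighbouring spots of a host-marker-poor spot that could have been chosen, 44.6% were themselves host-marker-poor in CC075F1 replicate 1, 46.8% in CC075F1 replicate 2, 48.9% in CC080F1 replicate 1 and 36.2% in CC080F1 replicate 2, where the rule takes 10% of spots. The largest connected patch held 83, 83, 60 and 39 spots in these sections, while 38 of 61, 39 of 63, 39 of 60 and 58 of 90 patches were single spots. The mean shares of the strains differed by 3.12 percentage points (45.7% ± 1.60 in CC075F1 and 42.6% ± 8.95 in CC080F1, SD, n = 2 sections each, exact permutation test, two-sided, p = 1), and 2 sections against 2 cannot give a p below 0.333.

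The share of spots near the tissue edge was compared between strains as well. In CC080F1, 56.0% of host-marker-poor spots of replicate 1 and 28.7% of those of replicate 2 were within 3 grid steps of a position without tissue, against 28.2% and 17.2% of the other spots. In CC075F1 the shares were 16.1% and 8.83% of host-marker-poor spots against 18.1% and 19.0% of the other spots. The ratio of the shares was 1.98 and 1.67 in the CC080F1 sections and 0.893 and 0.464 in the CC075F1 sections, so the groups did not overlap, with p = 0.333 by the exact permutation test (two-sided), the smallest p this design allows. The section with the highest ratio, CC080F1 replicate 1, has a deep gap in the tissue whose rim counts as an edge, as the map of the spots shows, and the part of that gap in the result was not tested. Without that section the difference of the ratios was -0.99, against -1.15 with it. The position of CC075F1 replicate 1 depended on the width of the edge, since within 5 steps 37.8% of its host-marker-poor spots and 30.0% of its other spots were counted, and the difference between strains was then -0.73.

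**Figure D1:**
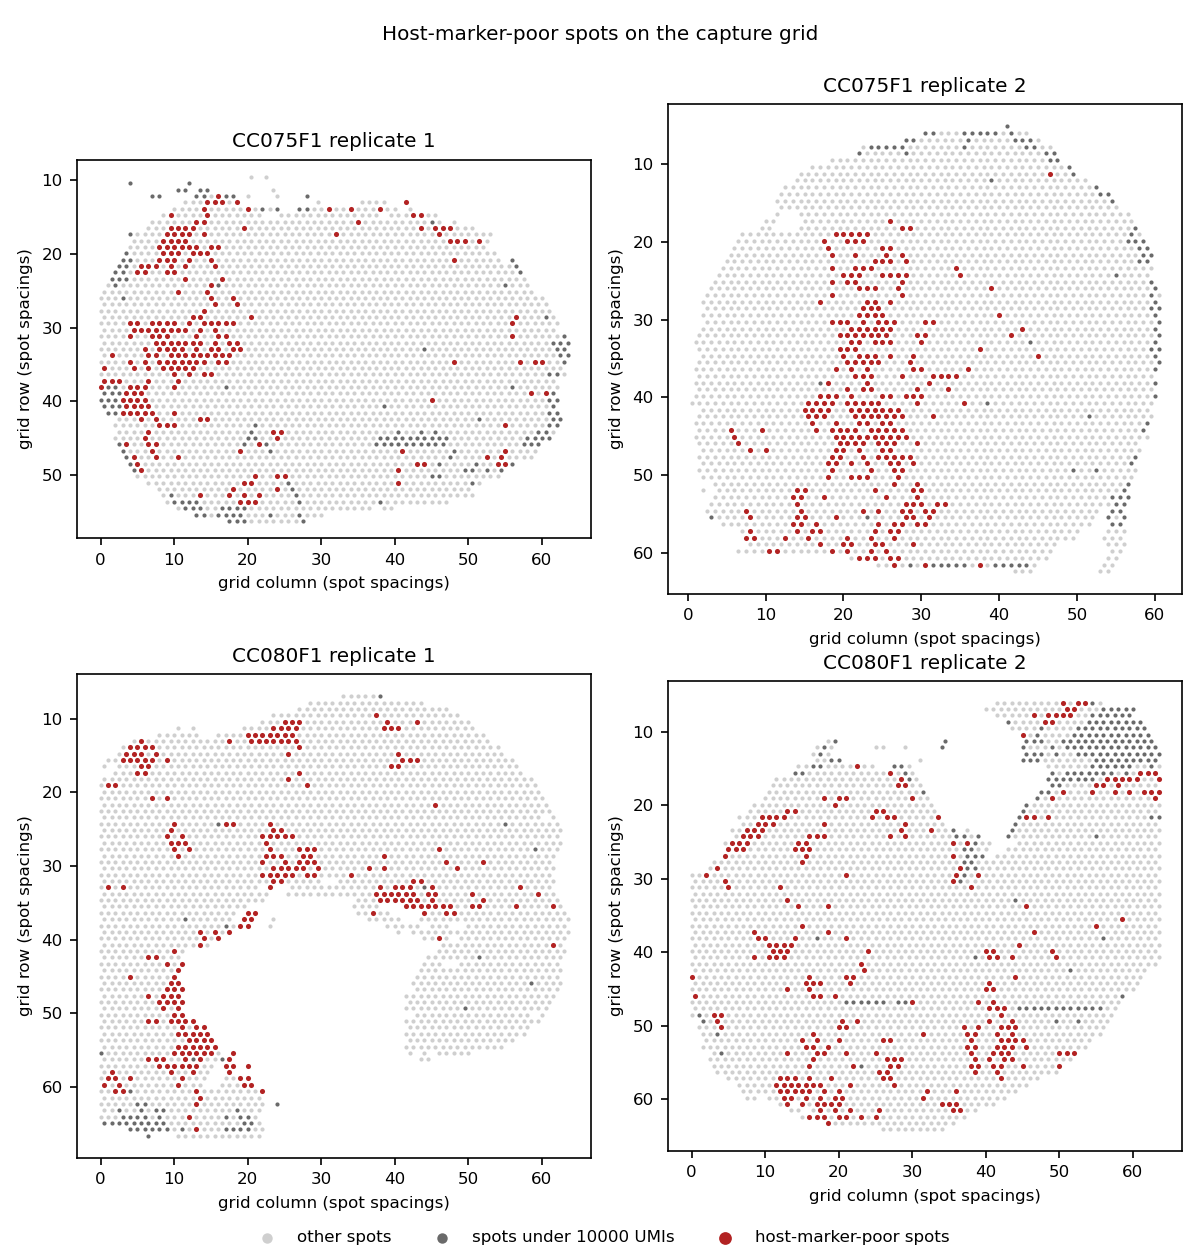
Position of the host-marker-poor spots (red), the other spots (light grey) and spots under 10000 UMIs (dark grey) on the capture grid of each section, with both axes in spot spacings. The red spots form patches and single spots in all 4 sections, lie mostly inside the tissue in CC075F1 replicate 2 and line part of the rim of the tissue gap in CC080F1 replicate 1.

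The label of tumor-dense spots was checked against genes of the cancer cells. Shisal2b (chr13:104845283-104863893, GRCm38), which the study uses as its marker for MC38 cells, was at 181 counts per 1000000 UMIs (CPM) in the host-marker-poor spots against 141 in the other spots of CC075F1 replicate 1, at 193 against 263 in CC075F1 replicate 2, at 103 against 125 in CC080F1 replicate 1 and at 261 against 269 in CC080F1 replicate 2. It was thus higher in 1 section and lower in 3. Of the 25 carcinoma and epithelial genes listed, Shisal2b alone reached a mean of 10 CPM. The epithelial genes Krt8, Krt18, Krt19 and Epcam were at most 0.381 CPM in both sets of spots in every section, so these colon carcinoma markers could not be used to judge the content of cancer cells. Ifi202b (chr1:173962568-173982744, GRCm38), an interferon-inducible gene that C57BL/6J mice are known to lack in expression, gave a second measure of host RNA in CC080F1. Its level was 26.6 CPM in the host-marker-poor spots against 36.8 CPM in the other spots of replicate 1, and 30.0 against 45.3 CPM in replicate 2. The host-marker-poor spots thus kept 0.722 and 0.661 of the Ifi202b level of the other spots, where the summed rule genes kept 0.605 and 0.570. Interferon gamma response genes had median log2 ratios of -0.51 and -0.60 in the same CC080F1 sections. For Ifi202b, less host RNA and less interferon response therefore cannot be told apart. The spots held less of these host transcripts without being free of them, and a higher density of tumor cells was not seen in Shisal2b.

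The contrast with the other spots is given as a description with no test, since the rule chose the spots on the same counts. A gene was counted where its level differed by more than 1.2-fold in the same direction in all 4 sections, among 8260 genes outside the rule with a mean of at least 10 CPM. By this count 4 genes (0.0484%) were higher in the host-marker-poor spots and 223 (2.7%) were lower. By direction alone 4.21% of the 8260 genes were higher and 38.4% lower in all 4 sections. The median gene itself had a log2 ratio of -0.03, -0.19, -0.06 and -0.15 in CC075F1 replicates 1 and 2 and CC080F1 replicates 1 and 2, which is the order of the sections in all series of 4 values below. CC075F1 replicate 1 departed from the other sections, and without it 82 genes were higher and 607 lower.

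Among genes with a mean of at least 50 CPM, the widest margins were those of Hmox1 and Ero1l. Hmox1 (chr8:75093621-75100589, GRCm38), the enzyme that breaks down heme under oxidative stress, was at 44.1, 110, 62.7 and 119 CPM in the host-marker-poor spots against 31.3, 51.3, 29.6 and 63.0 CPM in the other spots. Ero1l (chr14:45283087-45318771, GRCm38), an oxidase that forms disulfide bonds in the endoplasmic reticulum and a known HIF-1 target, was at 135, 254, 186 and 354 CPM against 108, 113, 93.5 and 142 CPM. The excess was larger in 3 sections, with ratios of 1.89 to 2.15 for Hmox1 and 1.99 to 2.49 for Ero1l, and less so in CC075F1 replicate 1 at 1.41 and 1.25. The other genes of the 4 were Hmga1, a chromatin protein of fast-growing cells, with log2 ratios of 0.27, 0.30, 0.41 and 0.38, and Hbegf, a ligand of the EGF receptor, with 0.39, 0.44, 0.92 and 0.99. Hbegf has a mean of 22.1 CPM, under the 50 CPM of the rule for named genes, and was named after its values were seen.

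Other genes among the 15 with the highest smallest log2 ratio had narrower margins. Myc, a transcription factor of growth, had 0.16, 0.23, 0.42 and 0.42, and Phgdh, the first enzyme of serine synthesis, had 0.20, 0.16, 0.30 and 0.23. Plk2, a stress-inducible kinase, had 0.21, 0.41, 0.58 and 0.65. Lgals3, a galectin that tumor cells and macrophages both make, had 0.15, 0.44, 0.73 and 0.52, so that it was higher although the macrophage genes were lower. Jmjd6, Eps8, Lrrfip1, Cyb5r1, Snhg6, Esd, Rnf126 and Cisd3 complete the 15 highest, and their log2 ratios lay between 0.14 and 0.69.

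**Figure D2:**
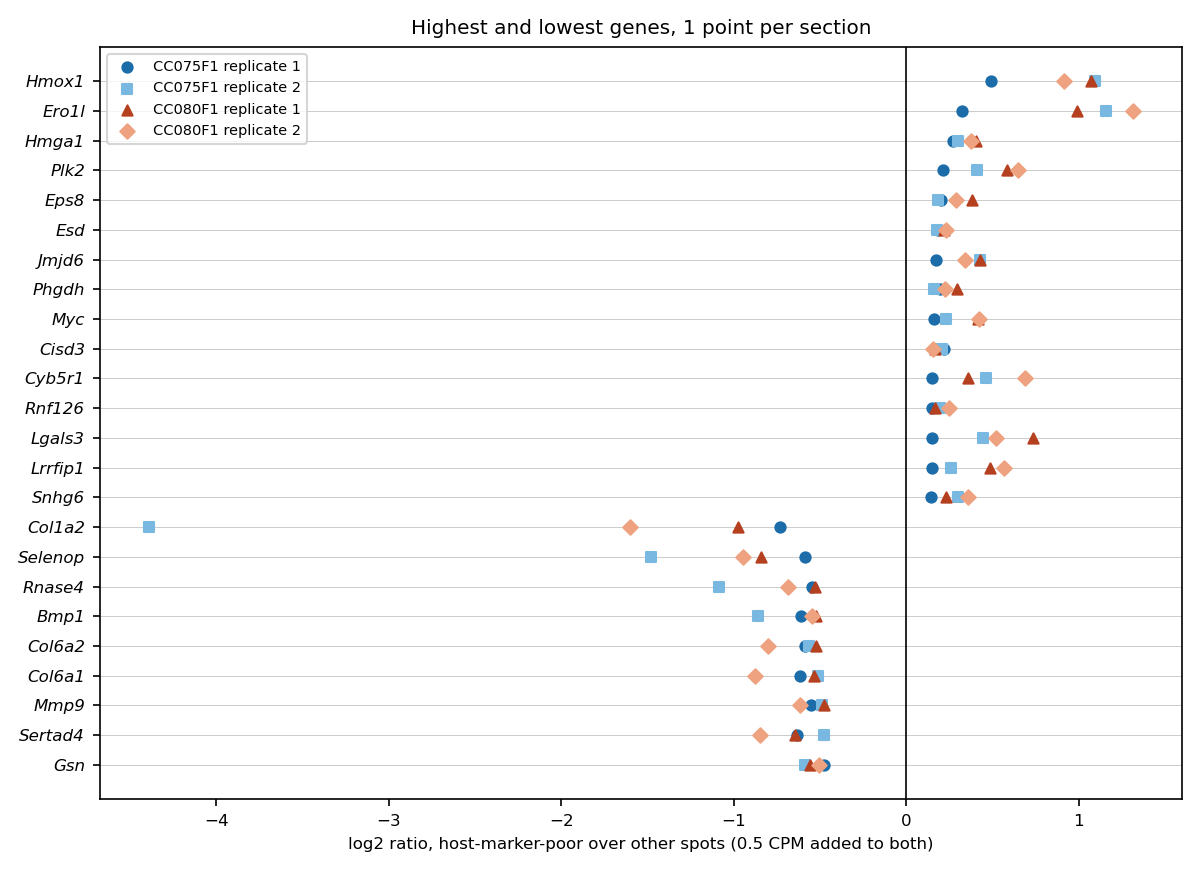
Log2 ratio of the level in host-marker-poor spots over the other spots, with 0.5 CPM added to both, for the highest and lowest named genes outside the rule, 1 point per section. Hmox1 and Ero1l stand apart at the high end with 1 lower point each in CC075F1 replicate 1, and Col1a2 reaches -4.39 in CC075F1 replicate 2.

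The lowest genes outside the rule were mostly genes of matrix and macrophages. Col1a2, the partner of Col1a1 in type I collagen, was at 30.9, 8.5, 23.9 and 35.4 CPM against 51.6, 187, 47.5 and 109 CPM. Col6a1 and Col6a2 of type VI collagen had log2 ratios of -0.51 to -0.87 and of -0.52 to -0.80, and Bmp1, the protease that trims procollagen, had -0.53 to -0.86. Selenop and Mmp9, which macrophages express, had -0.59 to -1.48 and -0.48 to -0.62. Rnase4, Sertad4 and Gsn were also among the lowest. The value of Col1a2 in CC075F1 replicate 2 goes with muscle genes in the other spots of that section. There the skeletal muscle actin Acta1 was at 87.7 CPM in the other spots and 2.4 CPM in the host-marker-poor spots, and the summed level of the 10 skeletal muscle genes in the host-marker-poor spots was 0.0479 of that in the other spots. The part of muscle and skin tissue at the margin of that section was not tested.

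Most host genes outside the rule were lower too, as the rule genes were by choice. All 6 MHC class II genes with a mean of at least 10 CPM were lower in all 4 sections, 4 of them past 1.2-fold, with list medians of -0.37, -1.54, -1.05 and -0.86 on the log2 scale. Across all genes counted, 38.4% were lower in all 4 sections and 2.7% were so past 1.2-fold. H2-Eb1 (chr17:34305867-34316674, GRCm38), the beta chain of an MHC class II molecule, was at 559, 160, 20.9 and 36.5 CPM in the host-marker-poor spots against 732, 464, 47.4 and 65.4 CPM in the other spots. Cd74, the invariant chain that guides class II molecules, was at 1683, 626, 148 and 218 CPM against 2259, 1720, 307 and 409 CPM. Both genes therefore stayed well above 0 in the host-marker-poor spots of every section.

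Of 20 macrophage genes outside the rule, 16 were lower in all 4 sections and none was higher, with medians of -0.25, -1.01, -0.40 and -0.59. C1qa, a subunit of complement C1q made by tissue macrophages, was at 582, 340, 335 and 329 CPM against 691, 692, 446 and 526 CPM. Of 17 fibroblast genes 13 were lower and none higher, and of 8 endothelial genes 7 were lower and none higher. Across all genes counted, 38.4% were lower and 4.21% higher in all 4 sections. The lymphocyte genes Nkg7, a granule protein of cytotoxic cells, and Thy1, a T cell surface protein, were the members of the T and NK cell list that reached a mean of 10 CPM, and both were lower in all 4 sections.

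Genes that answer interferon gamma were lower with the immune genes in 3 sections and close to the other spots in CC075F1 replicate 1. Of 17 such genes, 10 were lower in all 4 sections and none was higher, where 38.4% of all genes were lower, with medians of -0.03, -0.72, -0.51 and -0.60. Cxcl9, a chemokine that draws T cells, was at 309, 106, 30.5 and 66.4 CPM in the host-marker-poor spots against 316, 334, 51.4 and 124 CPM in the other spots. Of 13 MHC class I presentation genes, 7 were lower in all 4 sections and none was higher, again with 38.4% of all genes lower, with medians of -0.04, -0.36, -0.33 and -0.42.

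The blood and neutrophil lists did not follow the other host lists. The summed CPM of the 5 erythrocyte genes in the host-marker-poor spots was 0.356, 3.50, 0.959 and 1.32 times that of the other spots. Hbb-bs, a beta globin, was at 593 against 171 CPM in CC075F1 replicate 2 and at 4.99 against 14.1 CPM in CC075F1 replicate 1. The summed CPM of the 8 neutrophil genes was 0.798, 0.992, 2.48 and 2.41 times that of the other spots, but the sum was at most 21.9 CPM and no gene of the list reached a mean of 10 CPM.

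**Figure D3:**
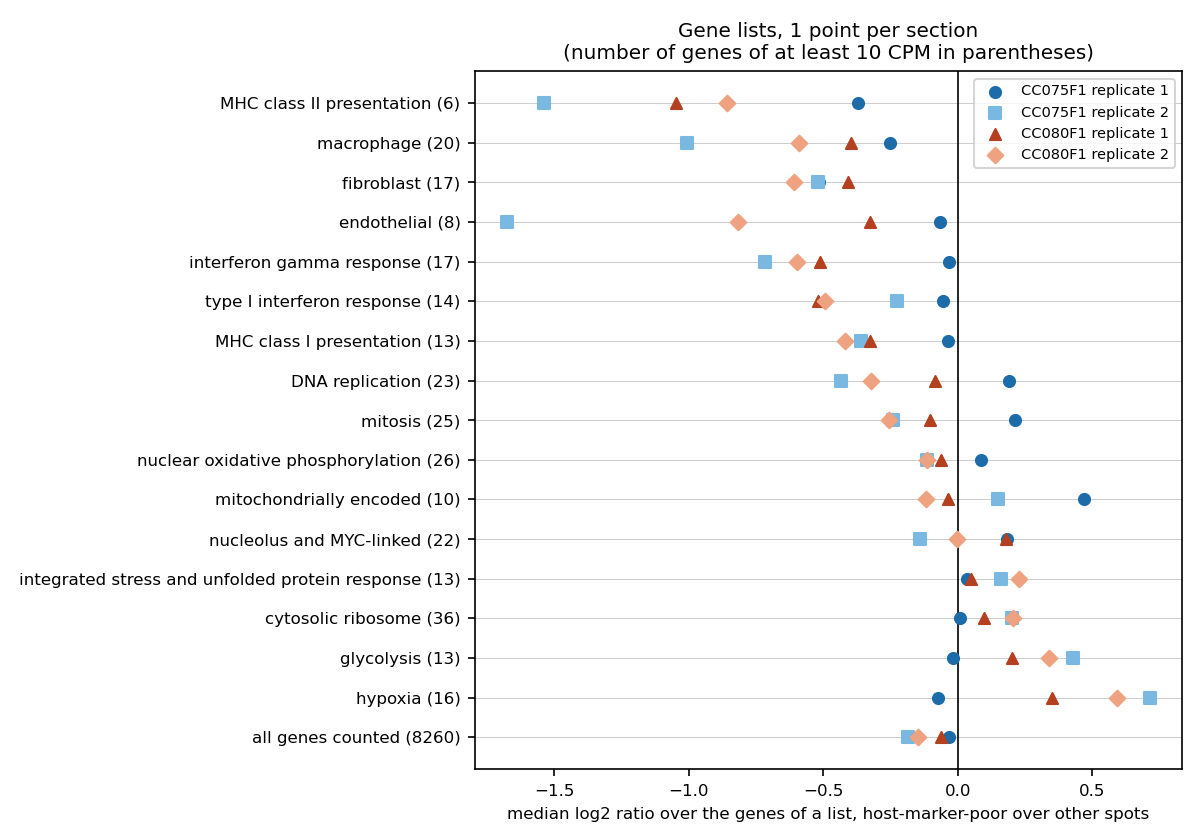
Median log2 ratio of the level in host-marker-poor spots over the other spots for each gene list, 1 point per section. The MHC class II, macrophage and fibroblast medians are below 0 in all 4 sections, and the hypoxia median is above 0 in every section except CC075F1 replicate 1, at -0.07.

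Hypoxia genes were higher in the host-marker-poor spots in 3 sections. Of 16 genes on the list, all 16 were higher in the 3 sections other than CC075F1 replicate 1, and 12 of them past 1.2-fold, where 7.6% of all genes counted were higher in those 3 sections. In CC075F1 replicate 1, 4 of the 16 were higher and 12 lower, and the list medians were -0.07, 0.71, 0.35 and 0.59. The 4 genes higher in all 4 sections were Ero1l, Bnip3, P4ha1 and Fam162a, and Ero1l was the one past 1.2-fold in each.

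Slc2a1, the glucose transporter GLUT1, was at 72.4, 208, 175 and 241 CPM against 75.7, 94.1, 87.0 and 106 CPM in the other spots. Bnip3, a mitochondrial protein that promotes removal of mitochondria, was at 133, 334, 156 and 260 CPM against 131, 138, 94.5 and 133 CPM. Vegfa, the main growth factor for vessels, was at 83.5, 72.6, 138 and 130 CPM against 102, 55.1, 111 and 88.0 CPM. For these 3 genes CC075F1 replicate 1 alone showed no excess above 1.2-fold.

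The promoters of the 4 hypoxia genes higher in all 4 sections are shown because HIF-1 binds a short DNA core, ACGTG, in its target genes. The windows run from 250 bases before to 50 bases after the start of the gene on its own strand, in RefSeq for GRCm38.p6, where Ero1l is named Ero1a. Capitals mark ACGTG as read on either strand, and CACGT is its reverse complement, so the 6 capitals of Bnip3 hold 2 overlapping matches.
Bnip3, chr7:138909457-138909756, minus strand: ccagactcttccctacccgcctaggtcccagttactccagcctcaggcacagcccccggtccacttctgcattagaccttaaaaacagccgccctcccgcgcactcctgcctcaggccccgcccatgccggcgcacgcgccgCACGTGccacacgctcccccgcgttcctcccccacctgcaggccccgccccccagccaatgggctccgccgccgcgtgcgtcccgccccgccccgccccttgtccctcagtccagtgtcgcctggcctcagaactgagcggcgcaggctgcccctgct
P4ha1, chr10:59323046-59323345, plus strand: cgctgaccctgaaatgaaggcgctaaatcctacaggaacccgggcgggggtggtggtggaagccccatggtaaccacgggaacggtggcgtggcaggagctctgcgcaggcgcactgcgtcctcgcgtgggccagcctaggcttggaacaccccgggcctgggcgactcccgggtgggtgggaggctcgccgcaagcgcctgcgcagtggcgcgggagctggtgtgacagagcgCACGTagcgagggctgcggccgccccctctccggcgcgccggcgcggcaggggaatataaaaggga
Ero1l, chr14:45318523-45318822, minus strand: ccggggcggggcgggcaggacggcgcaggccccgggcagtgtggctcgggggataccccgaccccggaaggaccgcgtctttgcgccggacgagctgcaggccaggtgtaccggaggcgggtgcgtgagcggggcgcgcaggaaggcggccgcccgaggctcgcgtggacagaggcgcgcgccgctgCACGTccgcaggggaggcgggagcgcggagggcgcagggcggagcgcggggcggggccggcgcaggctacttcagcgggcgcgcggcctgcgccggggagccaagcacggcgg
Fam162a, chr16:36071512-36071811, minus strand: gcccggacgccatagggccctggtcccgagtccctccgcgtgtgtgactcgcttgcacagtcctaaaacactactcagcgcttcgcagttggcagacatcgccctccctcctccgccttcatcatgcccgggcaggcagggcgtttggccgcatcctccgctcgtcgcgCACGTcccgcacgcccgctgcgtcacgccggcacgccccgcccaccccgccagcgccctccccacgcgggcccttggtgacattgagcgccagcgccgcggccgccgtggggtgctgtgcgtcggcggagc
Of the 20 hypoxia genes, 18 matched a promoter, and 14 of these held ACGTG, where 19.6% of the 32851 promoters of the same length did. A match describes the letters in the window and no binding was measured. The 14 were counted over the whole list, not only the 4 genes higher in all 4 sections. The list was fixed as genes of the hypoxia response, so its share of matches says nothing about these spots.

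Glycolysis and stress genes had their lowest list medians in CC075F1 replicate 1, as hypoxia genes did. Of 13 glycolysis genes, 5 were higher and 1 lower in all 4 sections, with medians of -0.02, 0.43, 0.20 and 0.34. Across all genes counted, 4.21% were higher and 38.4% lower in all 4 sections, and the counts here are read against these shares. Ldha, which turns pyruvate into lactate, had log2 ratios of 0.02, 0.56, 0.29 and 0.41, and Pgk1, a glycolytic kinase, had 0.03, 0.71, 0.43 and 0.54. Of 13 genes of the integrated stress and unfolded protein responses, 5 were higher and 2 lower in all 4 sections, with medians of 0.03, 0.16, 0.05 and 0.23. Atf4, the transcription factor of the integrated stress response, had 0.07, 0.28, 0.40 and 0.36, and its target Trib3 had 0.10, 0.69, 0.90 and 0.91. Cytosolic ribosomal protein genes were higher by a small margin, 22 of 36 in all 4 sections and none lower, with medians of 0.01, 0.20, 0.10 and 0.21.

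Proliferation genes split the sections. All 25 mitosis genes were higher in the host-marker-poor spots of CC075F1 replicate 1, with a median of 0.21, and 21 of 25 were lower in each of the 3 other sections, with medians of -0.24, -0.10 and -0.26. In CC075F1 replicate 1, 3485 of the 8260 genes counted were higher, and the median gene was at -0.03. The median gene of the 3 other sections was itself at -0.19, -0.06 and -0.15, so mitosis genes lay little below it. Of 23 DNA replication genes, 22 were higher in CC075F1 replicate 1 and 19 were lower in each of the 3 other sections. Because all genes together were lower in those 3 sections, at 57% of genes lower in each, the lower share is read against that figure. Centred on the median gene, the mean of the section medians went from -0.10 to 0.01 for mitosis. For DNA replication it went from -0.16 to -0.06. The section whose host-marker-poor spots had more proliferation transcripts was thus the one with the lowest hypoxia list median. Ero1l and Hmox1 were still higher in its host-marker-poor spots, and a link resting on this section alone was not tested.

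Spots within a section were not uniform. The summed hypoxia CPM of a spot was above the median of the other spots in 30.7%, 95.6%, 58.2% and 79.7% of host-marker-poor spots, and above their 90th percentile in 14.6%, 46.1%, 24.2% and 28.4%. For mitosis the share above the median was 76.8%, 24.9%, 42.1% and 31.8%. MHC class II sums lay above the median of the other spots in 22.4%, 1.26%, 15.02% and 28.7% of host-marker-poor spots. They lay below the 10th percentile of the other spots in 30.7%, 64.4%, 27.5% and 24.7%.

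Spots of each section were also cut into 10 equal bins of host marker share, the lowest bin being the host-marker-poor spots, and the values of the end bins differed in the same direction in every section for Ero1l and for class II. Ero1l was at 135, 254, 186 and 354 CPM in the lowest bin and 77.9, 46.2, 74.1 and 140 CPM in the highest. Hmox1 was at 44.1, 110, 62.7 and 119 CPM in the lowest bin and 28.3, 29.2, 26.2 and 155 CPM in the highest. It was thus higher in the highest bin of CC080F1 replicate 2 and lower there in the other sections. The summed class II CPM was 3564, 1194, 328 and 473 in the lowest bin and 5826, 6322, 1044 and 1338 in the highest. Shisal2b was at 181, 193, 103 and 261 CPM in the lowest bin and 139, 190, 154 and 194 CPM in the highest, with no common direction. The bins are cut on the ranking share itself and are given with no test.

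**Figure D4:**
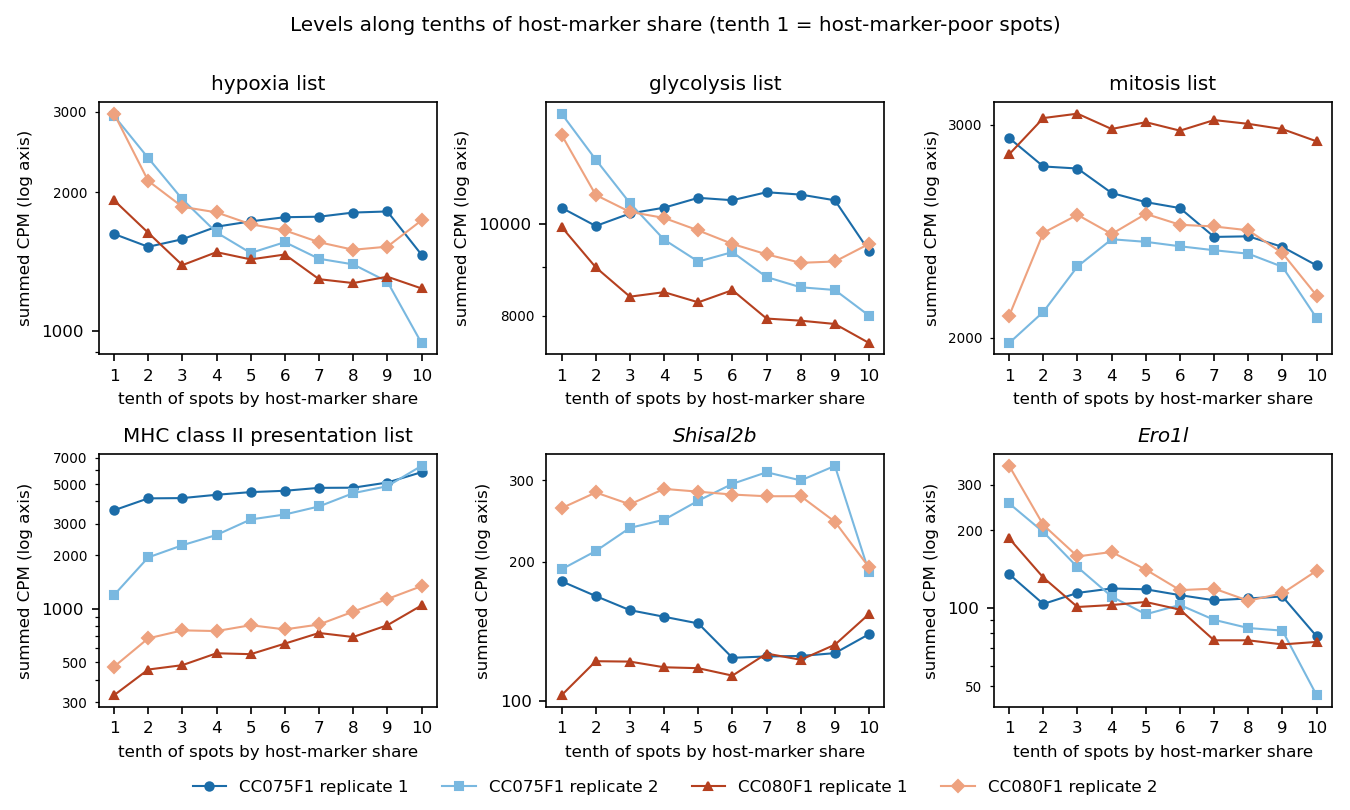
Summed CPM of the hypoxia, glycolysis, mitosis and MHC class II lists and CPM of Shisal2b and Ero1l, on a log axis, in 10 bins of spots ordered by host marker share, 1 line per section. Ero1l ends lower and MHC class II higher in the bin richest in host markers in all 4 sections, and Shisal2b has no common direction.

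Median mitochondrial UMI shares of 2.42% against 1.74% in CC075F1 replicate 1 and 1.82% against 1.26% in CC075F1 replicate 2 were higher in the host-marker-poor spots. In CC080F1 they were 2.03% against 2.01% and 1.72% against 1.74%. mt-Co2, a subunit of cytochrome oxidase, had log2 ratios of 0.44, 0.22, -0.03 and -0.05 over the 4 sections, while mt-Nd1, a subunit of complex I, had 0.63, -0.31, -0.04 and -0.35. Among all 8260 genes, 1.03% were higher in the host-marker-poor spots of both CC075F1 sections and lower in those of both CC080F1 sections, and 2.12% the reverse. The part of this share, and of the greater depth in CC075F1 replicate 2, in the results above was not tested. With the other spots matched in depth 5 genes were higher and 142 lower past 1.2-fold in all 4 sections.

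The strains were then compared within the host-marker-poor spots, with UMIs summed per section and edgeR's quasi-likelihood test. The rule ranks spots inside each section and does not use the strain. Of 12079 genes tested, 1 (0.00828%) passed an adjusted p of 0.05, and 490 (4.06%) had an unadjusted p under 0.05. The sections of the strains did not overlap in 15.4% of genes with CC075F1 higher and in 18.2% with CC075F1 lower. The count depended on the sections. It was 1361 without CC075F1 replicate 1 and 70 without CC075F1 replicate 2, 7 without CC080F1 replicate 1 and 3 without CC080F1 replicate 2. Values below are CPM scaled by the trimmed mean of M values (TMM), and log2 fold changes are CC075F1 over CC080F1.

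The gene that passed was Ifi202b, lower in CC075F1, with an adjusted p of 0.0158 by edgeR. It passed in all 16 alternative settings, which include the test in the other spots. Its log2 fold change was -11.3, and -11.5 without CC080F1 replicate 1. It had 0 UMIs in the host-marker-poor spots of both CC075F1 sections and 254 and 347 UMIs in those of CC080F1. A count of 0 allows up to 0.340 and 0.145 CPM in the CC075F1 sections (3 UMIs per section, for counting error only), and the level was at least 83.1-fold lower than in CC080F1 on that limit. In the other spots of CC075F1 it had 0 UMIs as well.

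Antigen presentation genes were higher in both CC075F1 sections without passing the test. H2-Eb1 was at 494 and 228 scaled CPM in CC075F1 and 17.3 and 35.2 in CC080F1, a log2 fold change of 3.78 (SE 0.52, 95% interval 2.55 to 5.01, adjusted p = 0.199 by edgeR). Cd74 was at 1485 and 894 against 123 and 211, a log2 fold change of 2.83. Of the 7 class II genes tested, 6 had CC075F1 above CC080F1 without overlap and none the reverse, with a median log2 fold change of 2.52. Of all 12079 genes tested, 15.4% were above without overlap and 18.2% the reverse. The macrophage counts below are read against the same shares. Over the 16 alternative settings, which include the test in the other spots, H2-Eb1 passed in 8 and Cd74 in 6. The adjusted p of H2-Eb1 ran from 6.8e-25 (edgeR with the replicate block) to 0.417. Without CC080F1 replicate 1 the log2 fold change was 3.35 for H2-Eb1 (adjusted p = 0.350 by edgeR) and 2.495 for Cd74. Of the 20 macrophage genes outside the rule, a list that holds Cd74 as well, 10 had CC075F1 above CC080F1 without overlap and 2 the reverse. Their summed scaled CPM was 4897 and 4684 against 2120 and 2602, and the median log2 fold change was 0.32. Under library size scaling 7 were above and 3 the reverse, with a median of -0.02 against -0.28 for all genes. The part of the macrophage genes in the class II difference was not tested. For the other spots, a setting already counted among the 16, the edgeR log2 fold change of H2-Eb1 was 3.67 (adjusted p = 0.0166).

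Of 13 MHC class I presentation genes, 11 had CC075F1 above CC080F1 without overlap and none the reverse, with a median log2 fold change of 0.68. Among all 12079 genes tested, 15.4% were above without overlap and 18.2% the reverse. Psmb9, a subunit of the immunoproteasome, was at 148 and 196 against 72.6 and 76.9 scaled CPM, a log2 fold change of 1.202 (SE 0.26, 95% interval 0.59 to 1.81, adjusted p = 0.677 by edgeR). It passed in 3 of 16 alternative settings, with adjusted p from 0.00111 upward, and was 1.16 without CC080F1 replicate 1. H2-K1, a classical class I heavy chain, was at 1810 and 2617 against 1055 and 1388, a log2 fold change of 0.86, and 0.67 without CC080F1 replicate 1. H2-K1 and H2-Eb1 lie in the MHC, where host alleles can differ and class I genes have near-identical copies, so their counts are uncertain between strains. Of the class I genes 5 kept CC075F1 above CC080F1 without overlap under library size scaling. Under that scaling the median of all 12079 genes was -0.28, with 657 above without overlap and 2794 the reverse.

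Of 20 interferon gamma response genes, 14 had CC075F1 above CC080F1 without overlap and none the reverse, with a median of 0.79. The share over all 12079 genes was 15.4% above without overlap and 18.2% the reverse. Under library size scaling 7 of the 20 were above and 1 was the reverse. Of all 12079 genes, 657 were then above and 2794 the reverse. Cxcl9 was at 272 and 151 against 25.2 and 64.1 scaled CPM. Nkg7 was at 15.2 and 14.3 against 2.42 and 3.09, a log2 fold change of 2.42 (adjusted p = 0.164 by edgeR), and passed in 6 of 16 alternative settings. Without CC080F1 replicate 1 the log2 fold change was 2.25 for Nkg7 and 1.72 for Cxcl9. Of 14 T and NK cell genes tested, 10 had CC075F1 above CC080F1 without overlap and none the reverse. Under library size scaling 7 of the 14 were above and none the reverse. These lymphocyte genes stood beside the interferon genes in the same spots, and their part in that difference was not tested. Fibroblast genes had the other sign, 19 of 19 negative, 10 without overlap, with a median of -0.55. Of all genes tested, 18.2% were negative without overlap, and the fibroblast count stayed at 10 under library size scaling.

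Of the carcinoma list 3 genes could be tested, and 1 of them, Ereg, had CC075F1 lower without overlap. Across all 12079 genes tested, 18.2% were lower without overlap and 15.4% higher, so this count does not set the list apart. The level of Ereg was low and rests on few UMIs. Ereg, a ligand of the EGF receptor, was at 0.601 and 3.24 scaled CPM in CC075F1 and 7.78 and 6.505 in CC080F1, a log2 fold change of -1.83 (adjusted p = 0.884 by edgeR). Shisal2b was at 160 and 275 scaled CPM in CC075F1 and 85.0 and 252 in CC080F1, a log2 fold change of 0.37 with a 95% interval of -0.85 to 1.59 (adjusted p = 0.922 by edgeR). Ero1l was at 119 and 362 against 154 and 342, a log2 fold change of -0.04 with an interval of -1.39 to 1.31. Hmox1 was at 38.9 and 157 against 51.8 and 115, a log2 fold change of 0.23 with an interval of -1.24 to 1.71. Without CC080F1 replicate 1 the log2 fold change was -0.21 for Shisal2b, -0.51 for Ero1l and -0.23 for Hmox1, so that of Shisal2b and Hmox1 reversed. These intervals are wide, and a strain difference of 2-fold either way lies inside those of Ero1l and Hmox1.

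Of 20 hypoxia genes 1 separated the strains, with CC075F1 lower, and the median was 0.08. With TMM, 18.2% of all 12079 genes were lower in CC075F1 without overlap and 15.4% higher. Under library size scaling 7 hypoxia genes separated the strains, all with CC075F1 lower, and the median was -0.34. Under that scaling 2794 of all 12079 genes had CC075F1 lower without overlap and 657 had it higher, with a median of -0.28. Of 25 mitosis genes 9 had CC075F1 above CC080F1 and none the reverse, with a median of 0.17, and under library size scaling 2 did so with a median of -0.11. Mki67, the Ki-67 proliferation antigen, was at 135 and 85.5 against 119 and 107 scaled CPM. Nuclear genes of oxidative phosphorylation had 17 of 26 without overlap, all higher in CC075F1, with a median of 0.55, and under library size scaling 11 did so with a median of 0.20.

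**Figure D5:**
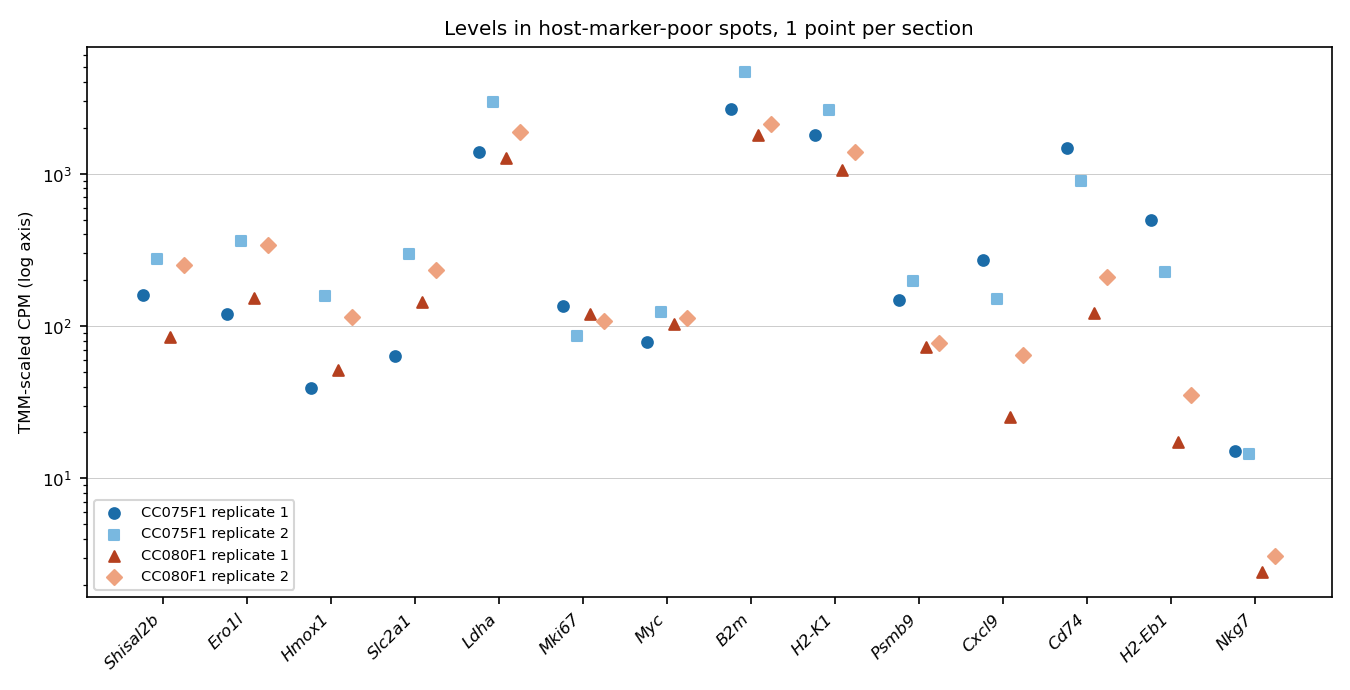
TMM-scaled CPM in the host-marker-poor spots for named genes, on a log axis, 1 point per section, with CC075F1 and CC080F1 marked apart. H2-Eb1, Cd74, Nkg7 and Psmb9 do not overlap between strains, while Ero1l, Hmox1 and Shisal2b do.

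Whether the strains differed more in the host-marker-poor spots than in the other spots was tested as the strain term of the contrast within sections. By edgeR none of 14872 genes passed, with 345 (2.32%) at an unadjusted p under 0.05. The count without CC075F1 replicate 1 was 721 and without CC075F1 replicate 2 it was 442, against 0 without CC080F1 replicate 1 and 2 without CC080F1 replicate 2. For H2-Eb1 the difference of the strain effects was 0.04 on the log2 scale and for Cxcl9 0.00. With 2 sections per strain these estimates cannot show that the strain differences were of equal size in both sets of spots.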

How the data were processed

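Visium libraries of 4 fresh-frozen MC38 sections, 2 per strain, were used. The authors deposited UMI counts per gene and spot, which per the labels and the study's methods were made with Space Ranger on the mouse genome GRCm38 (mm10), and no normalization had been applied to the counts. Sections held 82594649 to 146460975 UMIs, which sets the precision, and limits for a count of 0 cover counting error only. Spots were ranked and summed in Python 3.11.15 as described in the report, with members and gene lists chosen with earlier results of these data known. Lists came with no test of their own.

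Counts summed over the host-marker-poor spots of each section were compared between strains with edgeR 4.0.16 (R 4.3.3), by filterByExpr, TMM and the quasi-likelihood test, with Benjamini-Hochberg adjustment over all genes tested and a threshold of 0.05. DESeq2 1.42.0 was an alternative. The contrast with the other spots was given as log2 ratios of CPM with 0.5 CPM added, with no test. Section values were compared by exact permutation. Named genes were the 15 with the highest smallest log2 ratio and the 10 with the lowest largest log2 ratio, at a mean of at least 50 CPM, genes past the strain test, and genes of the lists. Each test across genes was tested on simulated data. Alternatives covered scaling, filters, the share of spots taken, the depth minimum, thinning to 10000 UMIs, the genes ranked on, a replicate block and leaving out each section. Some were chosen after seeing the data, namely centring on the median gene, ranking on a random part of the UMIs and using the other spots. Doublet calling does not apply to spots. Some genes that met the rule for named genes are not reported here.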

Additional observations from a re-analysis of the deposited data

Results flagged for a closer look

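The mitochondrially encoded genes had higher levels in the host-marker-poor spots than in the other spots of both CC075F1 sections, with list medians of 0.47 and 0.15 on the log2 scale, and lower levels in both CC080F1 sections, at -0.04 and -0.12. The strains' means differed by 0.38. The sections of 1 strain lay above 0 and those of the other below it, and the difference was not tested. The medians of all genes in CC080F1 were -0.06 and -0.15, so the list was not lower than other genes there, and mt-Nd1 was at -0.31 in CC075F1 replicate 2.

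The share of host-marker-poor spots near the tissue edge, relative to the other spots, was below 1 in both CC075F1 sections and above 1 in both CC080F1 sections at 3 steps and 10% of spots. In CC075F1 replicate 1 the host-marker-poor share was the higher one within 5 steps (37.8% against 30.0%), with the lowest 5% of spots (18.9% against 17.8%), with the lowest 20% (19.1% against 17.6%) and at 20000 UMIs (11.8% against 11.2%). It was also the higher one with the immune ranking (20.5% against 17.6%) and with the stromal and endothelial ranking (22.4% against 17.4%). The mean ratios differed by -1.15 (CC075F1 minus CC080F1, exact permutation p = 0.333, two-sided, the smallest p that 2 sections against 2 can give).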

How the results depend on the processing

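The count of genes that differed between strains within the host-marker-poor spots, 1, was also 1 with DESeq2 size factors in edgeR, the lowest 5% or 20% of spots, 20000 UMIs, thinning and ranking on the immune genes. It was 4 with library size alone, 91 with no filter, 40 with DESeq2, 8 when spots were ranked on the stromal and endothelial genes and 24 in the other spots (chosen after seeing the data), and it ranged from 3 to 1361 when a section was left out. The cause was not tested. With the replicate block it was 287. The deviations of same-numbered sections correlated at 0.383. With 2 sections per strain both pairs must give the same value, so it is a single correlation. No label ties the numbers to a shared batch, and whether same-numbered sections share one was not tested. The count for the strain term of the contrast, 0, was 52 with no filter and 1 after thinning, and ranged from 0 to 721 when a section was left out. Where a lone section stood for a strain, it was assumed to vary like the other strain's sections.

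The 4 genes higher in all 4 sections became 8 with the lowest 5% of spots, 2 with the lowest 20%, 7 at 20000 UMIs, 1 after thinning, 2 with the immune ranking and 10 after centring on the median gene (chosen after seeing the data), and 4 to 82 when a section was left out. The 223 lower genes became 141 after thinning, 126 and 96 with the immune and the stromal and endothelial rankings, 142 with depth matching, 50 at a minimum of 50 CPM and 99 after centring, and 236 to 607 when a section was left out. Ranking on a random part of the UMIs and measuring on the rest, also chosen after seeing the data, gave 6 and 177. The hypoxia median stayed between 0.24 and 0.55 around 0.40 over 14 settings. Ranking on the stromal and endothelial genes took the macrophage median from -0.56 to -0.18 and the class II median from -0.95 to -0.46, and ranking on the immune genes took the fibroblast median from -0.51 to -0.32. The endothelial list gave no value at 50 CPM.

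The strain difference in neighbour share reversed to -2.72 with the lowest 5% of spots and ranged from -3.21 to 9.45 when a section was left out, and the edge difference ranged from -1.36 to -0.93 when a section was left out and was -0.73 both within 5 steps and with the lowest 20% of spots. The strain difference of Hmox1 reversed to -0.24 with library size alone, -0.082 with the lowest 5% and -0.15 with the stromal and endothelial ranking, and ranged from -1.10 to 0.94 when a section was left out. That of Ero1l reversed to 0.11 with the lowest 20%, 0.20 with the immune ranking and 0.23 in the other spots, and ranged from -1.05 to 0.66. That of Shisal2b ranged from -0.21 to 1.37. Genes under about 10 CPM rest on few UMIs in the host-marker-poor spots.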
